A study of Mus musculus with 6 samples.

Results

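The genes described here are the ligands and receptors of the tumour necrosis factor (TNF) superfamily in mouse neutrophils that came from tumours grown from Hepa1-6, which is a hepatoma line of the mouse. They were taken by name: every gene whose symbol starts with Tnfsf or Tnfrsf, and Tnf, Lta, Ltb, Cd40, Cd40lg, Fas, Fasl, Cd27, Cd70, Ltbr, Ngfr and Eda2r. Of the 21959 genes in the deposited table, 44 met this rule: 17 ligands, 26 receptors and Tnfsfm13, a readthrough of 2 neighbouring ligand genes. The antisense gene Tnfsf13os was not analysed here. The study divided neutrophils by GPR35, a G protein-coupled receptor, into 3 GPR35-negative and 3 GPR35-positive libraries, and the comparison asks how the GPR35-positive libraries differed. Mouse strain, age, tumour site, the sorting scheme and whether a library pools animals are not given in the sources used here. As no source says that replicates are separate animals, each p-value covers the spread between these libraries alone, which may be technical.

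TNF superfamily ligands are mostly membrane proteins that act as trimers, and some, TNF among them, are also cut from the cell surface. Their receptors fall into those with a death domain, such as TNFR1 and Fas, which can recruit caspases, those that bind TRAF adaptors and activate NF-kappaB, and decoys that bind ligand without signalling. Neutrophils are a known source of TNF and of the B-cell factors BAFF and APRIL, and carry both TNF receptors and Fas.

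Levels are in FPKM, fragments scaled to the length of the gene and the size of the library, and can be compared between genes because they are scaled to length. A library held 15742744 to 18314104 reads on genes, and for a gene 1 kb long each read adds 0.0546 to 0.0635 FPKM. A log2 difference is one of log2(FPKM + 1), GPR35-positive minus GPR35-negative, which understates the change of low genes, and other folds are ratios of mean FPKM. A gene rose or fell where limma's adjusted p was under 0.05 over 10060 genes, those that reached 1 FPKM in 3 or more libraries.

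Cell markers differed strongly between the same libraries. All 15 mature neutrophil markers rose, and they summed to 891 to 1138 FPKM without GPR35 and to 9705 to 10659.5 FPKM with it, a 10.03-fold difference. Of 15 macrophage and monocyte markers, 11 were tested and rose, from 6.96-fold for Cd14 to 35.6-fold for C1qb. The sum of the 15 was 9.47-fold higher, with Cd14 making up most of it. Hepatocyte and hepatoma markers were present in all 6 libraries and summed to 25307 to 26739.5 FPKM against 16904 to 17324 FPKM, a ratio of 0.658, so that they stood above the neutrophil markers in both groups. T and NK cell markers summed to 76.0 to 95.6 and 62.5 to 64.2 FPKM, dendritic cell markers to 9.23 to 11.8 and 27.6 to 29.9 FPKM, and fibroblast and stellate markers to 13.5 to 18.1 and 31.3 to 38.1 FPKM. Endothelial markers summed to 13.7 to 15.4 and 12.9 to 14.0 FPKM, and B and plasma cell markers to 0.785 to 0.901 and 1.51 to 1.64 FPKM, with no B cell marker above the filter. No marker was listed at 0 in all 6 libraries. In such bulk samples a larger share of a cell type and more RNA per cell cannot be told apart, and the part of these markers in the results on the TNF superfamily was not tested. Gpr35 was at 2.03, 1.378 and 1.30 FPKM in the GPR35-negative and at 18.2, 21.9 and 20.4 FPKM in the GPR35-positive libraries.

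Of the 44 genes, 26 passed the filter, and of these 14 rose, 5 fell and 7 did not pass the test. Over all genes tested, 23.3% rose and 45.5% fell, 68.8% in all, and the median log2 difference was -0.19, against 0.33 for the 26. Between the groups, 13 of the 26 were higher without overlap and 5 lower, against 24.3% and 48.2% of all genes tested. A rise helps a low gene through the filter: 3 of the 26, Tnfsf9, Tnfrsf13b and Tnfrsf8, had no GPR35-negative library at 1 FPKM. With Tnfrsf14 and Tnfrsf23, 5 had fewer than 3 GPR35-negative libraries at 1 FPKM, and so needed GPR35-positive ones to pass the filter. In all, 10 genes rose at least 4-fold, which held for 8.36% of all genes tested, and the largest fall was to 0.600 of the GPR35-negative level. The plot of levels by library shows that the genes high in GPR35-negative libraries, Ltb and Tnfrsf12a, were not those that rose.

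**Figure D1:**
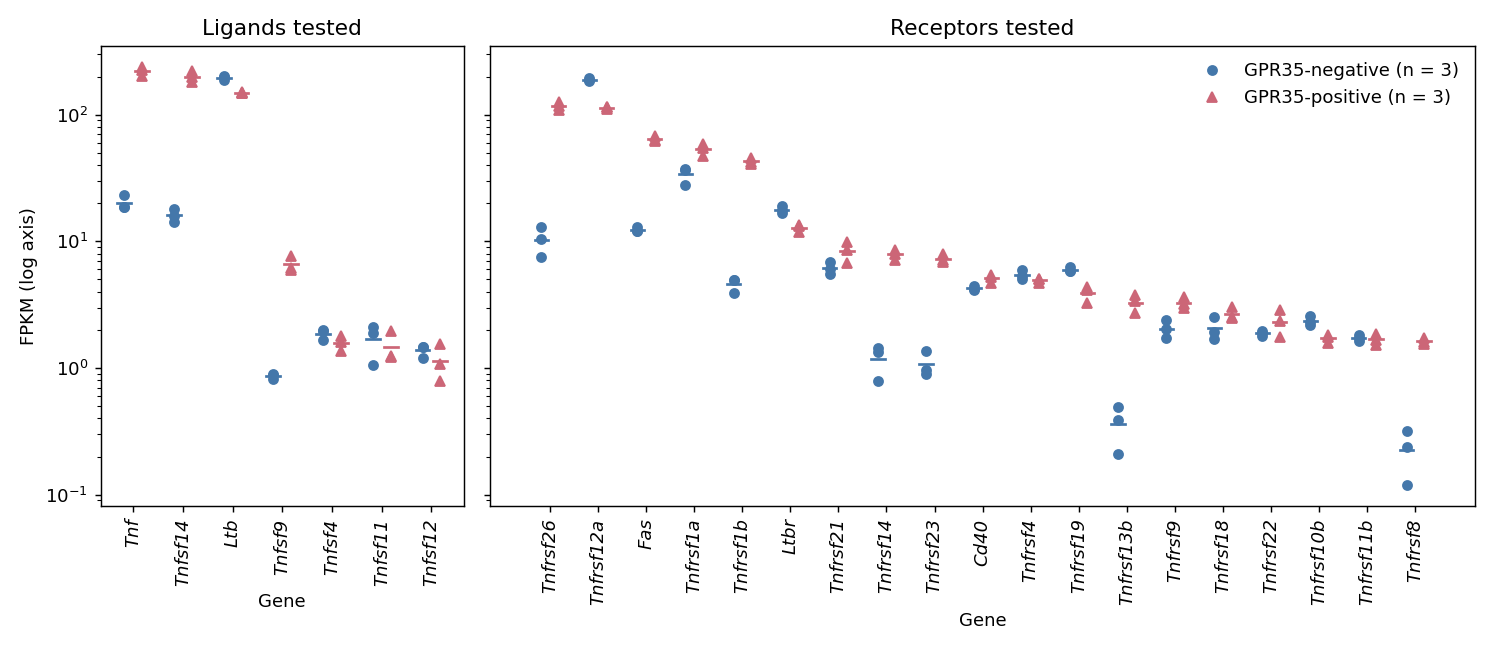
FPKM of the 7 ligands (left) and 19 receptors (right) that passed the filter, on a log axis, in 3 GPR35-negative (circles) and 3 GPR35-positive (triangles) libraries, with short lines at the group means. Tnf and Tnfsf14 lie between 14.3 and 23.1 FPKM in the GPR35-negative libraries and between 182 and 239 FPKM in the GPR35-positive ones, while Ltb and Tnfrsf12a are above 100 FPKM in both groups and lower in the GPR35-positive ones.

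To show what lies before the start of the genes that moved together, the 250 bases upstream of the RefSeq start (GRCm38.p6) were read for 34 of the 44 genes, 8 of them among those at least 4-fold higher. Capitals mark matches, on either strand, to the core site of AP-1 (TGANTCA) or to the 10-base NF-kappaB consensus. The largest ligand rises, the death receptor gene Fas and the only gene at least 4-fold higher with the NF-kappaB consensus are shown, each 5′ to 3′ along the gene's own strand.
Tnf, chr17:35202008-35202257, reverse strand: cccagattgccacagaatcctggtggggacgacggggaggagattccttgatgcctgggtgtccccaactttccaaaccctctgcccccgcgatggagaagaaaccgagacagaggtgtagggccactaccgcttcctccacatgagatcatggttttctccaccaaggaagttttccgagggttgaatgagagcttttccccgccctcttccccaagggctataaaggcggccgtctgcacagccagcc
Tnfsf14, chr17:57194182-57194431, reverse strand: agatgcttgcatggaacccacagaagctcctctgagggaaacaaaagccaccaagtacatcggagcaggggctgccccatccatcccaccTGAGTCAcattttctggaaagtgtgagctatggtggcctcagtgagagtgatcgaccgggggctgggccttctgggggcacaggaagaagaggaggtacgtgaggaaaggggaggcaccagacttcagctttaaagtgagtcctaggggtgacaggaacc
Fas, chr19:34290409-34290658, forward strand: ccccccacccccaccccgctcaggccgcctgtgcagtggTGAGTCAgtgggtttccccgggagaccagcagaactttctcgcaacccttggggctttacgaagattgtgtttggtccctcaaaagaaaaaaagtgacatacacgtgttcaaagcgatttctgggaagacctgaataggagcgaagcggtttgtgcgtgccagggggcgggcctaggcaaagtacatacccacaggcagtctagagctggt
Tnfrsf8, chr4:145315165-145315414, reverse strand: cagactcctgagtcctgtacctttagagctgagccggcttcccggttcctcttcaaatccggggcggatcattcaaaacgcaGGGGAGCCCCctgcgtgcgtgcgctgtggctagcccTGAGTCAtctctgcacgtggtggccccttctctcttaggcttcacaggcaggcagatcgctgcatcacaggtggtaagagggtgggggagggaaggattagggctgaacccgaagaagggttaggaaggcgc

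Among the 8, Tnfsf14, Fas and Tnfrsf8 held the AP-1 core, which 6.75% of all 32851 windows of this length hold, and Tnfrsf8 alone held the NF-kappaB consensus, which 3.90% hold. Of all 34 genes, 6 held the AP-1 core in at least 1 window, the others being Tnfrsf9, which rose, and Tnfsf13 and Tnfsf13b, which were below the filter. Tnfrsf9 and Tnfsf13b had 2 windows each and the match in the second only, while the shares over all windows count each window once. The matching windows of Tnfrsf9, Tnfsf13 and Tnfsf13b held 81, 230 and 166 bases of annotated exon, so they lay partly inside annotated genes. None of the 8 held an exact match to 1 site of PU.1, a myeloid factor (ACTTCCTC on either strand, in 2.44% of windows). Shorter or varied PU.1 sites were not searched for, so their absence is not shown. The window of Tnf held no exact match to any of these motifs, which says nothing of the factors elsewhere in the gene. Outside the 8, the consensus stood in the window of Ltb, which fell, as GGAAAGTCCC, and in that of Tnfrsf9 as overlapping matches beginning with GGGGATTTCC. A match describes the sequence and was not tested for binding.

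Among the ligands, Tnf, Tnfsf14 and Tnfsf9 rose, Ltb fell, and Tnfsf4, Tnfsf11 and Tnfsf12 did not pass. Tnf, which encodes the trimeric cytokine TNF, was at 23.1, 18.6 and 18.6 FPKM in the GPR35-negative and at 201, 239 and 226 FPKM in the GPR35-positive libraries. The groups were far apart, and the lowest GPR35-positive library stood well above the highest GPR35-negative one. Mean Tnf was 11.04-fold higher (log2 difference 3.40, SE 0.10, adjusted p = 1.17e-09). Tnfsf14, the gene of LIGHT, a ligand of HVEM and of the lymphotoxin beta receptor, was at 17.96, 15.9 and 14.3 FPKM against 182, 219 and 199 FPKM. Its groups did not overlap either, and its 12.5-fold rise was the largest among the genes tested here (log2 difference 3.56, SE 0.10, adjusted p = 8.34e-10). Tnfsf9, which encodes the ligand of the T cell costimulator 4-1BB, was low in the GPR35-negative libraries, at 0.899, 0.824 and 0.886 FPKM, and at 7.69, 6.12 and 5.97 FPKM in the GPR35-positive ones. Its groups were separate, with a 7.58-fold difference in the means (log2 difference 2.02, SE 0.10, adjusted p = 3.89e-08). These folds of 7.58 to 12.5 stand beside 10.03-fold for the summed neutrophil markers and 9.47-fold for the macrophage ones. The macrophage sum was mostly Cd14, at 6.96-fold, and the 11 markers tested in that list ranged up to 35.6-fold for C1qb.

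Ltb, the gene of lymphotoxin beta, which anchors lymphotoxin alpha to the membrane, went the other way. It was at 187, 197 and 203 FPKM in the GPR35-negative and at 150, 149 and 149 FPKM in the GPR35-positive libraries, with no overlap. The ratio of the means was 0.764 (log2 difference -0.39, SE 0.06, adjusted p = 0.000402), and under median-of-ratios scaling the fall was smaller but passed (-0.19, adjusted p = 0.0322), while it did not pass with limma-voom on recovered reads (-0.17, adjusted p = 0.0612). In the same libraries summed hepatocyte and hepatoma markers had a ratio of 0.658 and T and NK cell markers one of 0.749. Ltb, Tnf and Lta are neighbours on chromosome 17 of GRCm38, with Ltb at chr17:35194439-35196320 on the forward strand and Tnf at chr17:35199381-35202007 on the reverse strand, 3.06 kb apart, and Lta another 1.16 kb on. Lta, the gene of lymphotoxin alpha, was below the filter at 0.252, 0.171 and 0.0919 FPKM against 0.591, 0.487 and 0.355 FPKM, or 12 and 34 reads in all per group. The 3 neighbours thus differed in direction or level: Tnf rose, Ltb fell, and Lta stayed under 0.6 FPKM in every library.

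A second group on chromosome 17 holds Tnfsf9, Cd70 and Tnfsf14, with gaps of 38.2 and 39.7 kb. Tnfsf9 and Tnfsf14 rose, while Cd70, between them, which encodes the ligand of the lymphocyte receptor CD27, was under the filter at 0.964, 0.350 and 0.226 FPKM against 0.347, 0.364 and 0.259 FPKM. Its 22 and 14 reads per group had overlapping exact 95% Poisson intervals of 13.8 to 33.3 and 7.65 to 23.5, which cover counting error only.

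These changes altered which ligand transcripts led. Of the summed FPKM of the 17 ligands, Ltb took 81.3% ± 2.42, Tnf 8.37% ± 1.17 and Tnfsf14 6.69% ± 0.848 in GPR35-negative libraries (SD, n = 3). In GPR35-positive libraries Tnf took 37.8% ± 1.01, Tnfsf14 34.1% ± 1.06 and Ltb 25.6% ± 1.69 (SD, n = 3). The sum itself was 240 ± 3.08 and 586 ± 37.3 FPKM (SD, n = 3 each). Tnf and Tnfsf14 stood next to each other in the order of levels in both groups, and in the GPR35-positive group the range of Tnf, 201 to 239 FPKM, overlapped that of Tnfsf14, 182 to 219 FPKM.

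The other ligands tested were low. Tnfsf4, the gene of OX40 ligand, was at 1.86 ± 0.182 and 1.58 ± 0.209 FPKM (adjusted p = 0.156). Tnfsf11, which encodes the osteoclast factor RANKL, was at 1.69 ± 0.567 and 1.47 ± 0.409 FPKM (adjusted p = 0.548). Tnfsf12, the gene of TWEAK, was at 1.377 ± 0.146 and 1.14 ± 0.375 FPKM (SD, n = 3 each, adjusted p = 0.234), and it passed as a fall only without GPR35-positive replicate 2 (adjusted p = 0.0276). The 2 groups overlapped for each of these genes. Tnfsf12 and Tnfsf13 each overlap the readthrough Tnfsfm13 on the same strand, so how the authors' counting shared reads among them is uncertain. Tnfsfm13 itself had 4 reads over the GPR35-negative and 2 over the GPR35-positive libraries.

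Of the 10 ligands below the filter, Tnfsf15, Tnfsf13b, Lta and Tnfsf18 were higher in every GPR35-positive library than in any GPR35-negative one. The same held for 18.1% of all genes above 0 but below the filter. Tnfsf15, the gene of TL1A, the ligand of the death receptor DR3, was at 0.00995, 0.0506 and 0.0109 FPKM against 0.571, 0.504 and 0.693 FPKM. Tnfsf13b, which encodes BAFF, a survival factor of B cells, was at 0.0675, 0.0344 and 0.0277 FPKM against 0.450, 0.401 and 0.350 FPKM. That is 15 reads over the 3 GPR35-negative libraries and 142 over the GPR35-positive ones, with exact 95% Poisson intervals of 8.40 to 24.7 and 120 to 167 that cover counting error only. In a fit of all 19818 genes above 0 with no filter, Tnfsf15, Tnfsf13b and Lta passed (adjusted p = 7.33e-05, 0.000114 and 0.00975), where 17.4% of genes rose, and Tnfsf18, the gene of the GITR ligand, did not (adjusted p = 0.0971). Tnfsf18 rested on 2 and 14 reads per group, of which 9 were in GPR35-positive replicate 3. For the Fas ligand gene, Fasl, the means were 0.860 ± 0.0513 and 0.856 ± 0.233 FPKM, and for Tnfsf10, which encodes TRAIL, 0.486 ± 0.145 and 0.341 ± 0.132 FPKM (SD, n = 3 each). Tnfsf13, which encodes APRIL, Tnfsf8, the CD30 ligand gene, and Cd40lg, the CD40 ligand gene, lay between 0.0762 and 0.649 FPKM in all libraries, with overlapping groups.

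Among the receptors, 11 of 19 tested rose and 4 fell, where 23.3% of all genes tested rose and 45.5% fell. Both TNF receptors rose, but by different amounts. Tnfrsf1b, the gene of TNFR2, which lacks a death domain, was at 4.95, 4.95 and 3.93 FPKM in the GPR35-negative and at 42.3, 45.5 and 40.5 FPKM in the GPR35-positive libraries. The groups were separate, and the means differed 9.28-fold (log2 difference 2.97, SE 0.09, adjusted p = 1.75e-09). Tnfrsf1a, the gene of TNFR1, the death-domain receptor of most cell types, was at 37.1, 36.7 and 28.0 FPKM against 47.4, 58.8 and 54.3 FPKM. Here too the groups did not overlap, but the difference was 1.58-fold (log2 difference 0.65, SE 0.12, adjusted p = 0.000724), with GPR35-negative replicate 3 below the other two. Within each library Tnfrsf1b stood well below Tnfrsf1a in the GPR35-negative group and close to it in the GPR35-positive group.

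Fas, which encodes the death receptor of the Fas ligand, was at 12.2, 12.0 and 13.0 FPKM against 68.2, 61.5 and 62.7 FPKM. Its libraries lay close together within each group and far apart between groups, with a 5.19-fold difference (log2 difference 2.28, SE 0.07, adjusted p = 1.75e-09). Tnfrsf21, the gene of the death receptor DR6, was at 5.56, 6.84 and 6.01 FPKM against 6.79, 9.88 and 8.53 FPKM. Its groups overlapped, and its rise (log2 difference 0.39, SE 0.12, adjusted p = 0.0182) did not pass without GPR35-negative replicate 1, GPR35-positive replicate 2 or GPR35-positive replicate 3 (adjusted p = 0.0636, 0.0727 and 0.0574). The TRAIL receptor gene Tnfrsf10b was lower, at 2.55, 2.32 and 2.17 FPKM against 1.75, 1.83 and 1.58 FPKM. There was no overlap, and it fell to 0.733 of the GPR35-negative mean (log2 difference -0.30, SE 0.08, adjusted p = 0.00943), but not with median-of-ratios scaling (adjusted p = 0.111) or limma-voom (0.149).

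Tnfrsf22, Tnfrsf23 and Tnfrsf26 lie side by side on chromosome 7, with gaps of 6.08 and 16.1 kb, and are close in sequence, so reads may have been assigned to the wrong copy. Tnfrsf22 and Tnfrsf23 encode decoy receptors for TRAIL, and Tnfrsf26 encodes a related receptor. Tnfrsf26 was at 13.0, 10.4 and 7.54 FPKM against 126, 109 and 116 FPKM, which made it the most abundant receptor transcript in 2 of the 3 GPR35-positive libraries. Its groups were separate, with an 11.3-fold difference (log2 difference 3.41, SE 0.15, adjusted p = 1.53e-08). Tnfrsf23 was at 1.36, 0.968 and 0.898 FPKM against 6.88, 7.93 and 7.07 FPKM, also without overlap and 6.78-fold higher (log2 difference 2.003, SE 0.10, adjusted p = 5.67e-08). Tnfrsf22 was at 1.79, 1.90 and 1.97 FPKM against 2.85, 1.74 and 2.33 FPKM. Its GPR35-positive libraries spread on both sides of the GPR35-negative ones, and it did not pass (adjusted p = 0.186), though it did without GPR35-positive replicate 2 (0.0224), with median-of-ratios scaling (0.0447) and with limma-voom (0.0391). The gene E230032D23Rik lies on the other strand across all 3, and the sources used here do not say whether strand was used in counting.

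Among receptors that bind TRAF adaptors, Tnfrsf14, Tnfrsf13b and Tnfrsf8 rose several-fold. Tnfrsf14, the gene of HVEM, was at 1.33, 1.44 and 0.795 FPKM against 7.10, 8.56 and 8.01 FPKM. All GPR35-positive libraries stood above the others, 6.65-fold in the means (log2 difference 2.03, SE 0.12, adjusted p = 2.10e-07). Tnfrsf13b, the gene of TACI, a receptor of BAFF and APRIL known from B cells, was at 0.389, 0.208 and 0.493 FPKM against 2.70, 3.37 and 3.79 FPKM. The groups were separate and differed 9.05-fold (log2 difference 1.65, SE 0.11, adjusted p = 5.96e-07). B and plasma cell markers summed to 0.785 to 0.901 FPKM in the GPR35-negative and to 1.51 to 1.64 FPKM in the GPR35-positive libraries. The part of B cells in the rise of Tnfrsf13b was not tested. The other BAFF receptor genes were low: Tnfrsf13c, the BAFF receptor gene, had means of 0.155 ± 0.116 and 0.0938 ± 0.0570 FPKM (SD, n = 3 each), whereas Tnfrsf17, the BCMA gene, had 0 reads in GPR35-negative and 3 reads in all in GPR35-positive libraries. Tnfrsf8, the gene of CD30, was at 0.319, 0.119 and 0.239 FPKM against 1.55, 1.72 and 1.61 FPKM, 7.21-fold higher without overlap (log2 difference 1.10, SE 0.08, adjusted p = 1.04e-06). Its neighbour on chromosome 4, 20.3 kb away, is Tnfrsf1b, which also rose.

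Of Tnfrsf9, Tnfrsf18, Tnfrsf4 and Cd40, the first pair rose. Tnfrsf9, the gene of 4-1BB, was at 2.39, 1.71 and 2.03 FPKM against 3.62, 2.99 and 3.21 FPKM, separate and 1.60-fold higher (log2 difference 0.49, SE 0.10, adjusted p = 0.00185). Tnfrsf18, the gene of GITR, was at 1.94, 2.52 and 1.71 FPKM against 2.49, 2.53 and 3.05 FPKM. Its groups overlapped and its adjusted p of 0.0468 was near the threshold: it did not pass without GPR35-negative replicate 1 or 3 (0.114 and 0.141) or without GPR35-positive replicate 1, 2 or 3 (0.0532, 0.0619 and 0.172). Tnfrsf4, the gene of OX40, was at 5.41 ± 0.454 and 4.95 ± 0.204 FPKM (SD, n = 3 each, adjusted p = 0.290). Cd40, the receptor of antigen-presenting cells for CD40 ligand, was at 4.19, 4.16 and 4.48 FPKM against 5.42, 4.66 and 5.21 FPKM. The Cd40 groups did not overlap, yet the difference of 0.21 on the log2 scale missed the threshold (adjusted p = 0.0521), and it passed with median-of-ratios scaling (0.00471), with limma-voom (0.00428), and when GPR35-negative replicate 3 (0.0478) or GPR35-positive replicate 2 (0.0348) was left out. Cd27 was below the filter, at 0.672 ± 0.0445 and 0.642 ± 0.169 FPKM (SD, n = 3 each). Of 10 T and NK cell markers tested, 5 fell and none rose, beside 45.5% and 23.3% of all genes tested.

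Tnfrsf12a, Ltbr and Tnfrsf19 fell. Tnfrsf12a, the gene of Fn14, the injury-induced receptor of TWEAK, was the most abundant receptor transcript in the GPR35-negative libraries, at 194, 185 and 189 FPKM against 111, 116 and 114 FPKM. The groups were separate with little spread, and the ratio of the means was 0.600 (log2 difference -0.73, SE 0.06, adjusted p = 2.72e-06). Ltbr, the gene of the lymphotoxin beta receptor, was at 18.9, 16.7 and 17.7 FPKM against 11.8, 13.3 and 13.2 FPKM, also separate, with a ratio of 0.720 (log2 difference -0.44, SE 0.08, adjusted p = 0.000848). Tnfrsf19, the gene of the orphan receptor TROY, was at 5.86, 6.22 and 5.82 FPKM against 3.25, 4.15 and 4.36 FPKM, separate, with a ratio of 0.657 (log2 difference -0.51, SE 0.10, adjusted p = 0.00143). Summed hepatocyte and hepatoma markers had a ratio of 0.658 between the same libraries, and the part of hepatoma RNA in these falls was not tested.

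The remaining receptors were low. Tnfrsf11b, which encodes the decoy osteoprotegerin, was at 1.73 ± 0.0989 and 1.69 ± 0.164 FPKM (SD, n = 3 each, adjusted p = 0.794). Tnfrsf11a, the gene of RANK, the receptor of RANKL, was below the filter at 0.00969, 0.0296 and 0.0849 FPKM against 0.526, 0.389 and 0.584 FPKM, without overlap, and passed with no filter (adjusted p = 0.000357). Eda2r, the gene of an ectodysplasin receptor, was lower in every GPR35-positive library, at 0.689, 0.822 and 0.733 FPKM against 0.555, 0.489 and 0.584 FPKM, and passed as a fall with no filter (adjusted p = 0.0441), where 22.1% of genes fell. Ngfr, a nerve growth factor receptor gene, and Tnfrsf25, the gene of DR3, had at most 7 reads in any library. In all, 18 of the 44 genes were below the filter: 5 were higher without overlap, 1 was lower and 12 overlapped, while 18.1% of all genes above 0 but below the filter were higher and 5.96% lower without overlap.

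**Figure D2:**
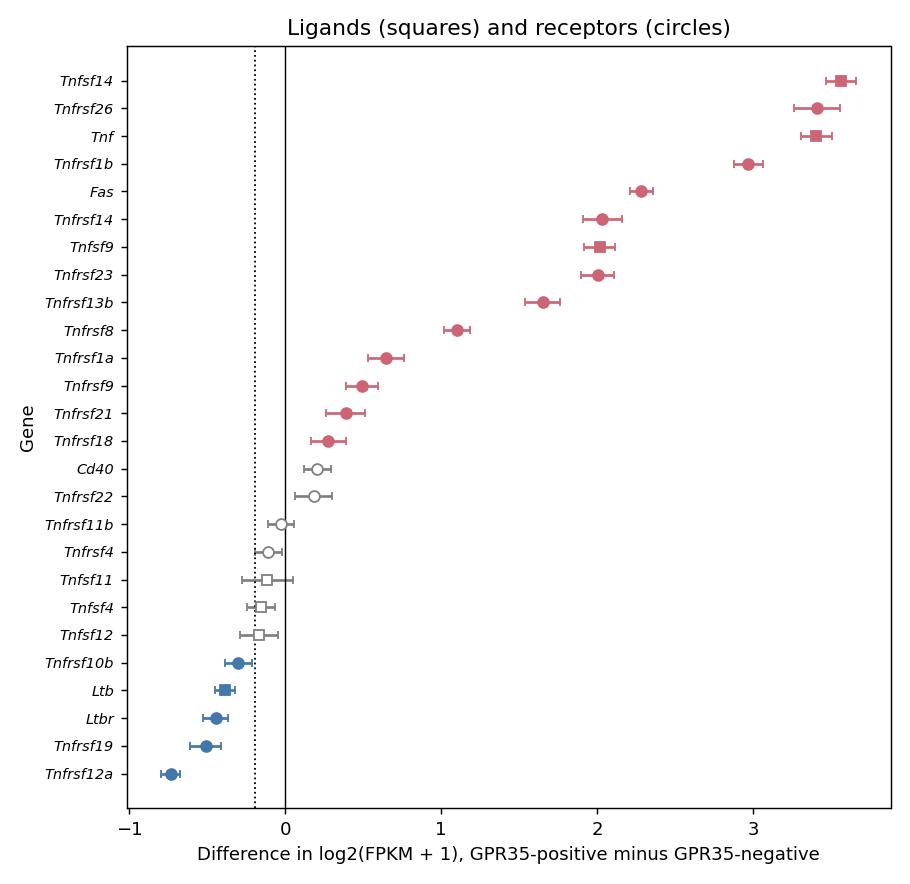
Difference in log2(FPKM + 1), GPR35-positive minus GPR35-negative, for the 26 genes that passed the filter, with bars of 1 standard error. Filled red marks rose, filled blue fell and open grey did not pass. The dotted line is the median of all genes tested, -0.19. The 5 falls lie between -0.73 and -0.30, while 8 rises are at 2.003 or more.

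The order of receptor levels also changed. Tnfrsf12a took 62.2% ± 1.73 of the summed FPKM of the 26 receptors in GPR35-negative and 24.7% ± 0.494 in GPR35-positive libraries (SD, n = 3). Tnfrsf26 went from 3.37% ± 0.772 to 25.4% ± 1.92, Fas from 4.07% ± 0.298 to 13.9% ± 0.784 and Tnfrsf1b from 1.51% ± 0.158 to 9.30% ± 0.528, while Tnfrsf1a took 11.1% ± 1.41 and 11.6% ± 1.23 (SD, n = 3 each). In the GPR35-positive libraries Tnfrsf26 and Tnfrsf12a were not apart beyond their spread (117 ± 8.77 and 114 ± 2.31 FPKM), and the next in order were Fas, Tnfrsf1a and Tnfrsf1b at 64.2 ± 3.60, 53.5 ± 5.71 and 42.8 ± 2.50 FPKM (SD, n = 3 each).

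To pair ligands with receptors, the log2 ratio of FPKM + 1 of the 2 genes was taken within each library. A factor common to a library cancels out of such a ratio only in part, since the 1 FPKM added to each gene weighs more on low genes. It was computed for the 9 ligand and receptor pairs in which both genes reached a mean of 1 FPKM in either group, and for Tnfrsf1b over Tnfrsf1a. Tnfsf9 met this rule only through its GPR35-positive mean, at 0.870 FPKM in the GPR35-negative and 6.59 FPKM in the GPR35-positive group. Of these 10 ratios, 7 were separate between the groups, all higher in GPR35-positive libraries. Several of the 10 share a gene that rose, such as Tnf, Tnfsf14 or Tnfrsf1b. The 7 are therefore not independent of each other or of the rises given above. For 3 libraries against 3 the exact two-sided permutation test cannot go below 0.10, the p of each of the 7 (0.143 adjusted over the 10), so no ratio can pass 0.05.

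The ratio of Tnf to Tnfrsf1a was -0.66, -0.94 and -0.56 in the GPR35-negative and 2.06, 2.002 and 2.04 in the GPR35-positive libraries, so that Tnf went from below its receptor to above it. Against Tnfrsf1b, which rose nearly as much, the ratio of Tnf moved only from 1.91 ± 0.166 to 2.35 ± 0.118 (SD, n = 3 each). The ratio of Tnfrsf1b to Tnfrsf1a was -2.68, -2.66 and -2.56 against -0.16, -0.36 and -0.41, a difference of 2.32. Tnfrsf1a thus remained the more abundant TNF receptor transcript in all 6 libraries. For LIGHT, the ratio of Tnfsf14 to Ltbr showed the widest difference of the 10, from -0.14 ± 0.128 to 3.86 ± 0.0686, since the ligand rose and the receptor fell. With its other receptor gene, Tnfrsf14, which rose too, the ratio went from 2.97 ± 0.157 to 4.50 ± 0.0268 (SD, n = 3 each). With 0.1 FPKM added in place of 1, the differences were 0.96 for Tnfsf14 over Tnfrsf14, against 1.53, and 0.27 for Tnf over Tnfrsf1b, against 0.44, and 6 of the 10 ratios were separate, Tnfsf12 over Tnfrsf12a no longer being so. Ligand over receptor for 4-1BB, Tnfsf9 to Tnfrsf9, changed sign, from -0.83, -0.57 and -0.68 to 0.91, 0.84 and 0.73.

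For 3 pairs the groups overlapped. Ltb and Ltbr both fell, and their ratio was 3.39 ± 0.131 and 3.45 ± 0.0953 (SD, n = 3 each, exact permutation p = 0.6). The ratio of Tnfsf4 to Tnfrsf4 was -1.16 ± 0.131 and -1.21 ± 0.128 (SD, n = 3 each, exact permutation p = 0.6), and that of Tnfsf11 to Tnfrsf11b was -0.04 ± 0.321 and -0.13 ± 0.249 (SD, n = 3 each, exact permutation p = 0.9). Tnfsf12 stood far below Tnfrsf12a in every library, at -6.33 ± 0.0643 and -5.76 ± 0.242, and the higher ratio came with the fall of Tnfrsf12a. For Fas, Cd40, Tnfrsf13b and Tnfrsf8, among others, the receptor was above 1 FPKM in a group while the mean of each of their ligand genes stayed under it. The same held for Tnfrsf18 with its ligand gene Tnfsf18, and for Tnfrsf10b, Tnfrsf22 and Tnfrsf23 with the TRAIL gene Tnfsf10.

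**Figure D3:**
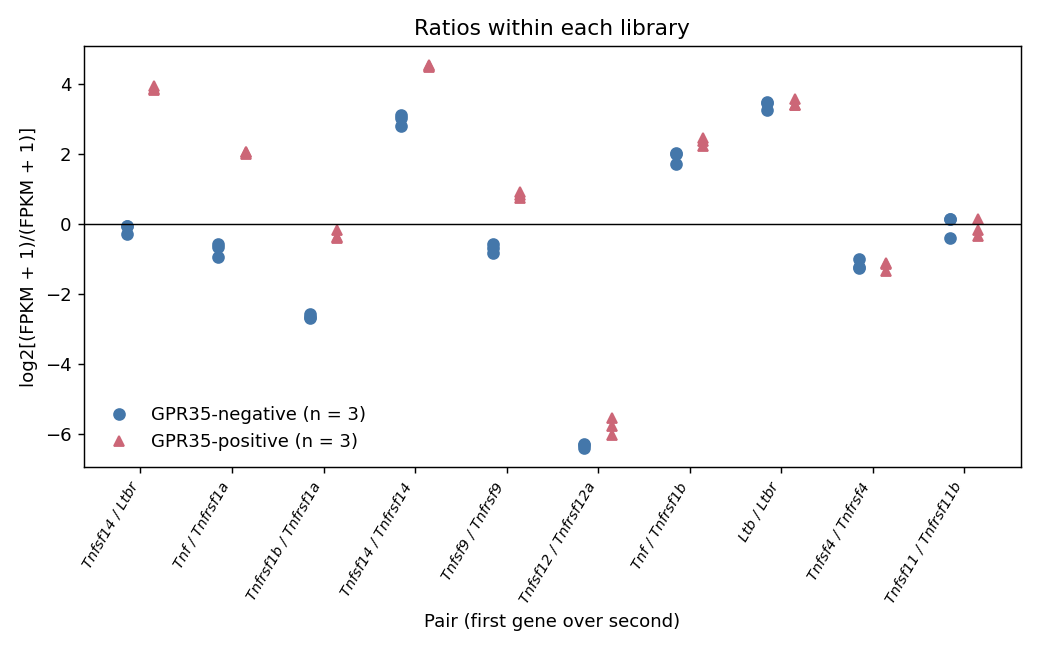
Log2 ratio of (FPKM + 1) of the first gene over the second within each of 3 GPR35-negative (circles) and 3 GPR35-positive (triangles) libraries, ordered by the difference. Tnf over Tnfrsf1a and Tnfsf9 over Tnfrsf9 go from below 0 to above it, and the 3 pairs on the right overlap.

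Genes that act with the superfamily moved in both directions. Of 36 genes of signalling just below the receptors, 35 were tested, 19 rose and 6 fell, with a median of 0.33, where 23.3% of all genes tested rose, 45.5% fell and the median was -0.19. The TRAF genes split. Traf1, an inducible adaptor of TNFR2, was at 4.09, 3.44 and 2.91 FPKM against 26.8, 28.2 and 28.2 FPKM, 7.98-fold higher without overlap, and Traf3, which restrains non-canonical NF-kappaB, rose by 1.28. Traf4 and Traf5 fell by 0.68 and 0.30, the latter not with median-of-ratios scaling, and Traf2 and Traf6 did not pass as deposited (adjusted p = 0.422 and 0.499), though Traf2 did with median-of-ratios scaling and both did with limma-voom. Birc3, the gene of cIAP2, a ubiquitin ligase at the TNF receptors, was at 5.72, 5.64 and 4.603 FPKM against 39.2, 39.6 and 38.5 FPKM, while its paralog Birc2 rose by 0.45. The kinase gene Map3k8 (TPL2) was 9.30-fold and the necroptosis kinase gene Ripk3 8.66-fold higher, with log2 differences of 3.10 and 2.34, and Mlkl, which encodes the effector of RIPK3, was at 22.7 ± 2.20 and 21.1 ± 0.964 FPKM (SD, n = 3 each, adjusted p = 0.297). Ripk1 and Cflar, the gene of the caspase-8 inhibitor c-FLIP, rose by 0.58 and 1.21. Casp8 and Fadd did not pass (adjusted p = 0.205 and 0.101), though Casp8 did as a rise with median-of-ratios scaling (0.00587) and limma-voom (0.00391). Tnip3 and Map3k14, which passed the filter only through the GPR35-positive libraries, rose by 1.01 and 0.39. Ripk3 and Map3k5, which rose by 0.75, were each at 0.824 FPKM in GPR35-negative replicate 2. Both thus needed a GPR35-positive library to pass the filter. Of the other falls, Rbck1, a subunit gene of the linear ubiquitin ligase, and Tab1 fell by 0.68 and 0.53, and Tradd and Ikbkg by 0.41 and 0.30, the last pair no longer passing under median-of-ratios scaling (p adjusted to 0.0532 and 0.214).

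Of 10 processing and shedding genes, 3 rose and 5 fell, shares near the 23.3% and 45.5% of all genes tested. The falls numbered 2 with median-of-ratios scaling, 1 with limma-voom, and 3 without GPR35-negative replicate 1 or 2 or GPR35-positive replicate 1. Adam17, the gene of the sheddase that releases TNF and its receptors, was at 4.05, 3.99 and 3.85 FPKM against 8.24, 8.75 and 8.30 FPKM, 2.12-fold higher without overlap. The metalloprotease gene Adam8 and Furin, which encodes a protease that matures several ligands, rose by 2.87 and 1.41. Timp3, an inhibitor of ADAM17, and Rhbdf1 fell by 0.47 and 0.36, Rhbdf1 not with limma-voom (adjusted p = 0.0568), and Adam10, Sppl2a and Sppl2b by 0.29, 0.34 and 0.54, these 3 not with median-of-ratios scaling. Rhbdf2, the gene of iRhom2, which carries ADAM17 to the surface of leukocytes, was at 5.38 ± 0.929 and 5.90 ± 0.861 FPKM (SD, n = 3 each, adjusted p = 0.437), and passed as a rise with limma-voom (0.0470).

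Of 10 genes whose proteins act on Tnf mRNA, 3 rose and 4 fell, again near the shares of 23.3% and 45.5% over all genes tested. Zfp36, the gene of tristetraprolin, which speeds the decay of Tnf mRNA, rose by 0.82, its kinase gene Mapkapk2 by 1.31 and the RNase gene Zc3h12a by 1.66. The RNA-binding protein genes Zfp36l1 and Elavl1 fell by 0.49 and 0.52, and Pabpc1 and Tia1 by 0.33 and 0.24, the last pair not with median-of-ratios scaling. Of 7 tested genes named as TNF alpha-induced proteins, 5 rose and 2 fell, where 23.3% of all genes tested rose and 45.5% fell. Tnfaip3 (A20), Tnfaip2, Tnfaip8l2, Tnfaip6 and Tnfaip8 were 3.74, 4.24, 8.43, 2.12 and 1.94-fold higher, and Tnfaip1 and Tnfaip8l1 fell to 0.719 and 0.637. Tnfaip8l2, at 0.410 ± 0.101 FPKM in GPR35-negative libraries (SD, n = 3), passed the filter only through the GPR35-positive ones. Among 10 other ligands, receptors and binding partners, of which 5 were tested, the receptor gene Relt rose by 0.83 and Nradd fell by 0.74. The other TNF superfamily genes Eda and Edar were below the filter, with no mean above 0.0325 FPKM.

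**Figure D4:**
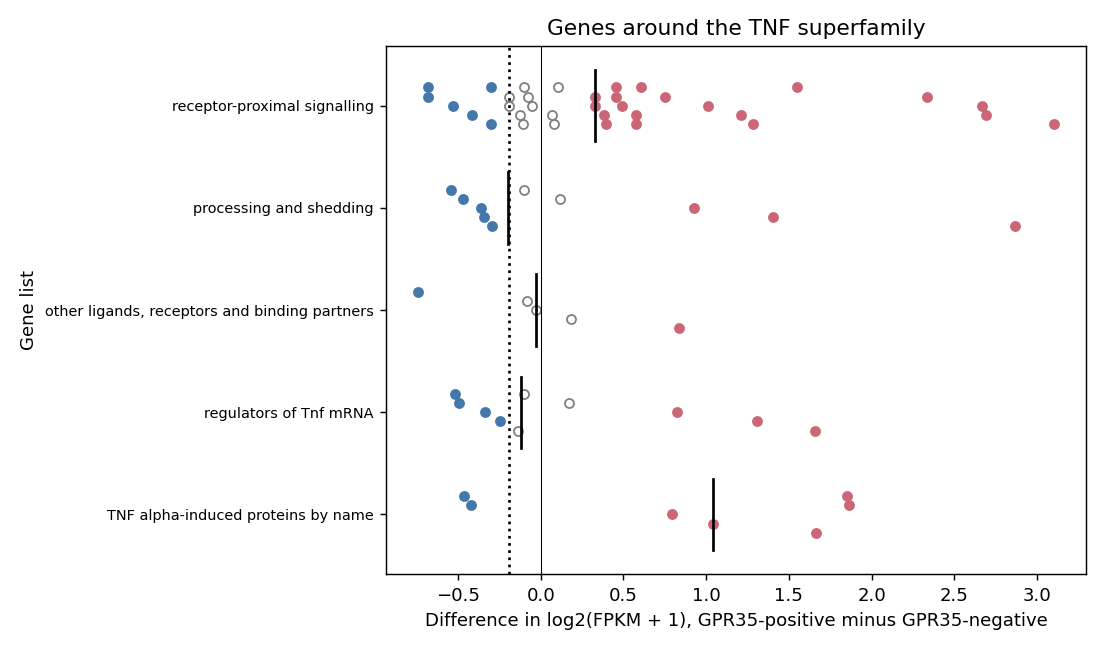
Difference in log2(FPKM + 1), GPR35-positive minus GPR35-negative, of each tested gene in 5 lists around the superfamily. Red rose, blue fell, open grey did not pass. Solid bars are list medians and the dotted line the median of all genes tested, -0.19. The rises reach 3.10 in the signalling list, and no fall is beyond -0.74.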

How the data were processed

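The deposited table gives FPKM, per the file headers, in 6 value columns, all used. The sample titles gave the groups, 3 libraries without and 3 with GPR35, and the replicate numbers. Per the submitters' processing notes the tools included HISAT2 2.1.0 and HTSeq 0.9.1, also fastp 0.22.0, with DESeq 1.38.3 named too, none with a role, and the build GRCh38, though the gene IDs are mouse. Symbols, positions and exon lengths came from GENCODE M21 (GRCm38), which held 21902 of the 21959 IDs. With those lengths 97.7% of values above 0 were whole reads within 0.02 reads. Read numbers are those, and are left out for Tnfsf15 and Tnfrsf11a, where not all values were whole. Replicates differed by a mean chi-square of 4.86 to 19.8 per gene, so none was counted as a duplicate.

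Groups were compared with a two-sided limma-trend fit (limma 3.58.1, R 4.3.3) of log2(FPKM + 1) on group alone, and p-values were adjusted by Benjamini-Hochberg across every gene tested. It was run on simulated data first, with few genes changed and as many rises as falls. That run does not cover a shift of the median or the effect of scaling seen here. Ratios were tested with scipy 1.17.1. The genes, lists and tests were chosen with earlier results of these data known. All 44 genes are accounted for. Those with a mean of at least 1 FPKM in either group are given in full, and of each list up to 6 genes with the smallest p and those against its majority. Some further list genes, the promoters of Tnf, Tnfsf14 and Fas, and the AP-1 core and PU.1 site, were chosen after their values were seen. Promoter sequences are RefSeq's (GRCm38.p6). Protein sequences were not used here. Alternatives were a pseudocount of 0.1, no filter, a filter on the mean, median-of-ratios scaling, limma-voom on recovered reads with trimmed-mean factors, a replicate block and leaving out each library.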

Additional observations from a re-analysis of the deposited data

How the results depend on the processing

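Of the 19 calls among the 26 TNF superfamily genes tested, 12 rises and 3 falls held under all 12 alternatives that tested the gene. The others were Tnfrsf18, Tnfrsf21, Ltb and Tnfrsf10b, whose values are given with them. Tnfrsf18 also missed the threshold with a pseudocount of 0.1 (adjusted p = 0.0517) and with no filter (0.118), as did Tnfrsf21 with no filter (0.0533). The genes that rose numbered 12 to 14 without each library in turn, and those that fell 5 to 6. With median-of-ratios scaling, 16 rose and 4 fell, and with limma-voom on recovered reads 16 rose and 3 fell, so that 84.2% of calls were rises against 73.7% as deposited. The scaling matters because it moved the median log2 difference of all genes from -0.19 to -0.03 and -0.01: 2401 genes fell with median-of-ratios scaling and 2191 with limma-voom, against 4575, and rises made up 54.8% and 57.6% of calls against 33.9%. Of genes in the 5 lists, 18 fell as deposited, 10 with median-of-ratios scaling and 9 with limma-voom, and rises made up 63.3%, 77.8% and 80.0% of calls. Tnfrsf11b, Tnfrsf4 and Tnfsf11, none of which passed, changed sign with both of these, and Tnfrsf11b and Tnfsf11 also without GPR35-negative replicate 1. The cause was not tested.

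Same-numbered libraries did not all deviate together: the correlations of their deviations from the group means were 0.00, 0.40 and -0.06 for replicates 1, 2 and 3. The 0.40 of replicate 2 was the highest between any GPR35-negative and GPR35-positive library. The numbers were not taken as pairs in the main fit, and these values do not settle whether they are. With the replicate block 2365 genes rose and 4633 fell, against 2342 and 4575, and of the TNF superfamily genes 13 rose and 5 fell, the one lost being Tnfrsf18 (adjusted p = 0.0661). Not every library correlated best with its own number. Depth limits the genes below the filter, some of which rest on fewer than 20 reads a group.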
